A study of Homo sapiens with 12 samples.

Results

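The genes described here carry out or control the synthesis of cholesterol and fatty acids. They were a named set of 33, of which 33 were found among the 16676 genes of the deposited table. Of these, 7 belong to the mevalonate pathway, 3 make squalene and lanosterol, 8 turn lanosterol into cholesterol, 5 regulate the SREBP transcription factors, 3 act in sterol transport or are targets of the sterol receptor LXR, and 7 make or modify fatty acids. RNA was measured in HCT116, an established human colon carcinoma line. The cells were SPARCLE knockout (KO), SPARCLE over-expressing (OE) or wild type (WT), where SPARCLE is a long non-coding RNA. Each cell kind received medium with 1 µM doxorubicin, an anthracycline that poisons topoisomerase II and damages DNA, or regular medium (control) for 48 h. The 6 groups, with 2 biological replicates each, were KO with doxorubicin, KO control, OE with doxorubicin, OE control, WT with doxorubicin and WT control. How the knockout and the over-expression were made, and whether the replicates are separate clones, is not given in the sources used here. The p-values therefore measure the spread between these samples only.

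Cholesterol is built from acetyl-CoA through mevalonate, isoprenoid units, squalene and lanosterol. The pathway is run by the SREBP transcription factors, which the escort protein SCAP carries out of the endoplasmic reticulum when sterols are scarce. The INSIG proteins hold SCAP back when sterols are plentiful, and INSIG1 is itself an SREBP target, so that its RNA is often used as a reading of SREBP activity. LXR works in the opposite direction and raises ABCA1, the cholesterol exporter of the plasma membrane.

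The levels are TPM, the authors' measure of transcript abundance per unit of gene length and of library size. Reads recovered from them amounted to 24879161 to 30674554 per library with doxorubicin and 12593485 to 18562523 in control medium, so depth moved with the treatment. A member held between 58 reads, for PMVK, and 28772 reads, for SCD, in a library. Small RNA genes, 331 in number, held 66.1 to 75.7% of the TPM with doxorubicin and 64.8 to 71.5% in control medium. SPARCLE stood at 13.5 to 27.3 TPM in OE cells and at 0.145 TPM or less in KO and WT cells, so its loss in KO cells was not detectable at this depth. Of the markers of colon epithelium, 9 of 9 had values here, and their summed level was 2812 to 3441 TPM with doxorubicin and 1125 to 2376 TPM in control medium. Among the 8 that were tested, 4 were higher and 1 lower with doxorubicin (limma adjusted p under 0.05, averaged over the 3 cell kinds). Over all genes 32.2% were higher and 25.9% lower. Of the fibroblast markers 1 of 6 had values (COL1A1, 1.04 to 6.19 TPM with doxorubicin and 2.37 to 4.20 TPM in control medium), of the leukocyte markers 1 of 6 (ITGAM, at most 1.00 TPM), of the endothelial markers 1 of 3 (VWF, at most 0.373 TPM), and of the adipocyte markers 0 of 4. The part of the epithelial markers and of depth in the results below was not tested.

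Most of the cholesterol genes fell with doxorubicin while several fatty acid genes, PMVK, TM7SF2, SCAP and ABCA1 rose. Averaged over the 3 cell kinds, 25 of 33 members changed (limma adjusted p under 0.05, here termed called), 16 of them lower and 9 higher. FADS2 passed the expression filter only through its doxorubicin libraries, and without it 24 of 32 changed, 16 lower and 8 higher. Over all 15256 genes tested 58.0% changed, 25.9% lower and 32.2% higher, so the share of members that fell exceeded that of all genes while the share that rose did not. INSIG1 fell most, to 0.0855 of its control level as a ratio of mean TPM. The median log2 difference was -0.32 over the members and 0.09 over all genes. At least 1 log2 unit separated the means of 14 members (42.4%), against 17.7% of all genes. Counting FADS2, 24 members were both called and apart, with no library of doxorubicin overlapping those of control in any cell kind. Of these, 15 were lower and 9, FADS2 among them, were higher, where 44.4% of all genes met this rule. Here a smaller share of cells with high levels and less RNA per cell cannot be told apart.

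**Figure D1:**
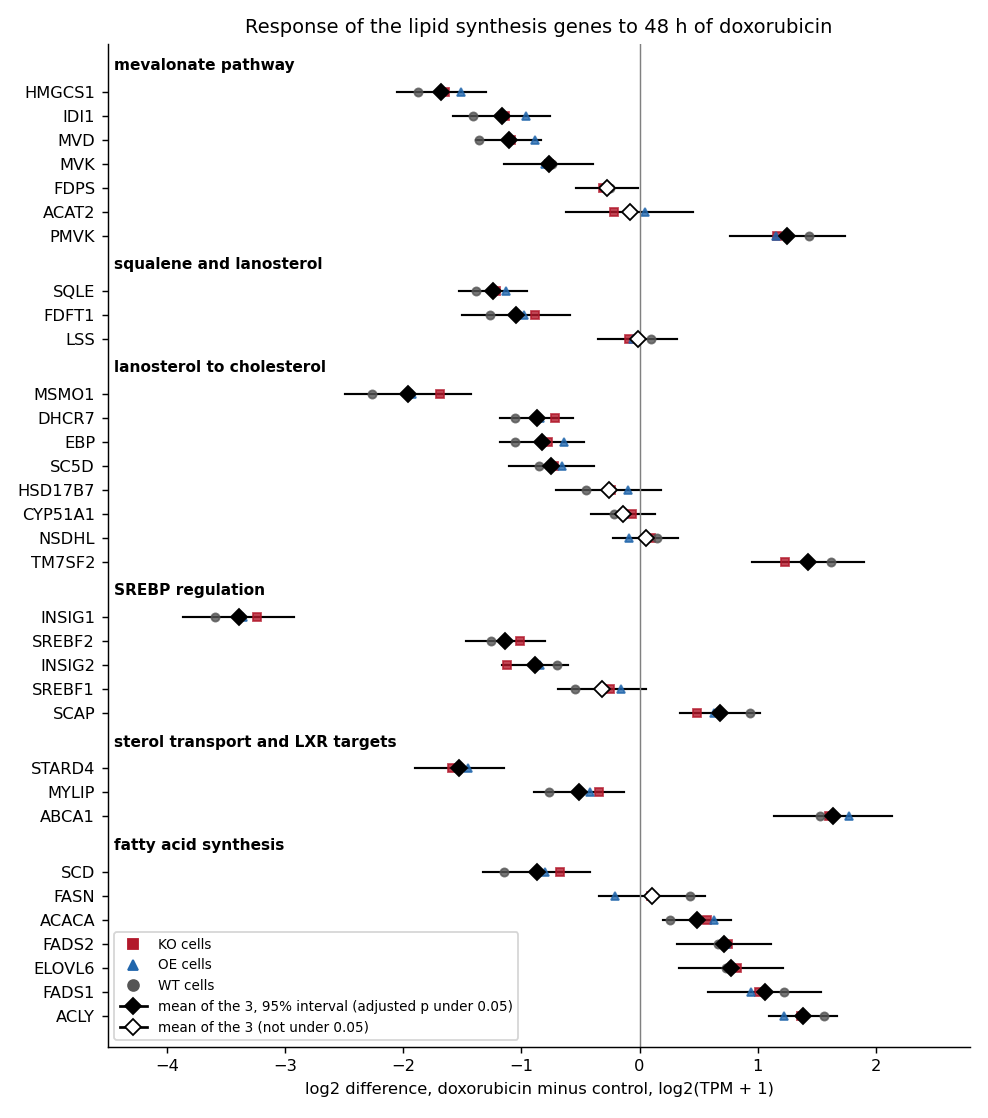
Each row is one gene, grouped by role, and the horizontal axis is the log2 difference of doxorubicin minus control on the log2(TPM + 1) scale. Coloured symbols are the KO, OE and WT cells (2 against 2 libraries each) and diamonds the mean of the 3 with its 95% interval, filled where the adjusted p is under 0.05. INSIG1 lies farthest to the left at -3.39, and ABCA1, TM7SF2, ACLY and PMVK lie farthest to the right.

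Within single cell kinds the same comparison called fewer members. In KO cells 14 members passed (4 higher, 10 lower), where 24.2% of all genes did (9.90% higher, 14.3% lower). In OE cells 13 passed (4 higher, 9 lower) against 23.0% of all genes (12.4% higher, 10.6% lower). In WT cells 20 passed (6 higher, 14 lower) against 32.2% (19.6% higher, 12.6% lower). The libraries of the media did not overlap in 62.1% of all genes in KO, 61.2% in OE and 72.5% in WT cells, and in 32.0% across all 6 against 6 libraries, which held for 19 members. These 19 include FADS2, which passed the expression filter only through its doxorubicin libraries. In each of the 3 cell kinds 13 members were called, where 16.6% of all genes were. They were the lower HMGCS1, MVD, SQLE, MSMO1, DHCR7, SREBF2, INSIG1, INSIG2 and STARD4, and the higher PMVK, TM7SF2, ABCA1 and ACLY. Among them DHCR7 in KO cells (limma adjusted p = 0.0492) lost its call under 13 alternatives, with adjusted p of 0.0519 to 0.285, and PMVK lost it under 7 in KO (0.0502 to 0.345) and 8 in OE cells (0.0509 to 0.262). Of the 13 members, only SQLE, INSIG1 and ACLY kept the call in each cell kind under every alternative. With median-ratio scaling the split was 9 higher and 10 lower in KO cells, and with small RNA genes left out it was 9 and 9 in KO and 8 and 11 in OE cells. These counts leaned on single libraries. The KO count was 9 without KO doxorubicin replicate a and 6 without KO control replicate b. The OE count was 8 without OE control replicate a and 4 without OE control replicate b. The WT count was 9 without WT doxorubicin replicate a, 12 without WT doxorubicin replicate b and 10 without WT control replicate a.

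The start regions of 6 members are shown. INSIG1 and MSMO1 had the largest falls and ABCA1 and TM7SF2 the largest rises, while SREBF2 and MVD, which also fell, were chosen for their motif matches described below. Each is the 200 bases before the RefSeq start on GRCh38.p14, 5′ to 3′ on the strand of the gene. Capitals mark matches to a sterol regulatory element (TCACNCCAC), an E-box (CACGTG) or a CCAAT box (CCAAT), the site of the factor NF-Y, on either strand, so that ATTGG is a CCAAT box read on the other strand. They lie at chr22:41832905-41833104, plus strand (SREBF2), chr7:155297678-155297877, plus strand (INSIG1), chr4:165327469-165327668, plus strand (MSMO1), chr16:88663092-88663291, minus strand (MVD), chr9:104928156-104928355, minus strand (ABCA1) and chr11:65111672-65111871, plus strand (TM7SF2).
SREBF2: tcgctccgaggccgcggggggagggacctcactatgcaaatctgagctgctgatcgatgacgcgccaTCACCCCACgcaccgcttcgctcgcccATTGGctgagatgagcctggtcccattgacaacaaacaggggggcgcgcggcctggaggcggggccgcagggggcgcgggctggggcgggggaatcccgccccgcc
INSIG1: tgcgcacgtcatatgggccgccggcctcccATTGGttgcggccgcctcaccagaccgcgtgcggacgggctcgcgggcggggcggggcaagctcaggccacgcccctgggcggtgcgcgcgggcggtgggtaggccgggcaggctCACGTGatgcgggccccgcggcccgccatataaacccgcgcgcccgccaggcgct
MSMO1: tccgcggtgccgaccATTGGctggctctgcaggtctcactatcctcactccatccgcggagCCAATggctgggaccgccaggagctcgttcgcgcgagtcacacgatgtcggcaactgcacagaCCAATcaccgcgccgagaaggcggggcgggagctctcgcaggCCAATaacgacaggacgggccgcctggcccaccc
MVD: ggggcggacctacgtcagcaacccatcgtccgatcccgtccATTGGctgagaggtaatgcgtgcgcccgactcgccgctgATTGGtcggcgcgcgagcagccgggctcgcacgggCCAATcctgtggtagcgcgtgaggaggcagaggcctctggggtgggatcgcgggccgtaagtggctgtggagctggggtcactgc
ABCA1: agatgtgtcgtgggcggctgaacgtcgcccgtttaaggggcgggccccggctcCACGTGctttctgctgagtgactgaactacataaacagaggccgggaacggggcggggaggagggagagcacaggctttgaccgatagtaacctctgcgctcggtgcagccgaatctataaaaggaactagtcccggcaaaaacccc
TM7SF2: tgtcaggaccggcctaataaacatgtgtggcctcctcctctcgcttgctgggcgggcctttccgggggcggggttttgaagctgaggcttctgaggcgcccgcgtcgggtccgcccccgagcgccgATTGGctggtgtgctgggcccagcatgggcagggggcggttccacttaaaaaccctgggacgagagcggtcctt

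The RefSeq table held a window for 29 of the 33 members, from 250 bases before to 50 after the start; ACAT2, FASN, FDFT1 and SQLE had none, and 8 members had several. The sterol regulatory element was matched in 1 member, SREBF2, beginning 133 bases before the start, and in 1.44% of the 10052 tested genes with a window. A CCAAT box was matched in 13 of the 14 members that fell, 4 of the 9 that rose and 4 of the 6 that were not called, against 43.2% of tested genes. MSMO1 held 4 of them and MVD 3, and INSIG2 was the member that fell with no match. A GC box (GGGCGG), the site of Sp1, was matched in 14 of 14, 9 of 9 and 5 of 6, against 77.7% of tested genes. The 9 that rose include FADS2, which passed the expression filter only through its doxorubicin libraries. FADS2 is counted among the matches of both the CCAAT box and the GC box. An E-box was matched in 2 of 14 (SC5D and INSIG1), 2 of 9 (SCAP and ABCA1) and 1 of 6 (LSS), against 12.6%. The direct-repeat LXR element was matched in no member and in 0.00995% of tested genes. Both strands were searched, matches of different motifs do not overlap in the stretches shown, and a match is a run of letters rather than a measured site. Only the exact letters given were sought, so a start region without a match, that of ABCA1 included, may still hold a variant of the site.

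The mevalonate pathway leads from acetyl-CoA to farnesyl diphosphate. Of its 7 members 4 fell, 1 rose and 2 were not called. HMGCS1 (chr5:43289395-43313512), which joins acetyl-CoA and acetoacetyl-CoA to HMG-CoA, had 14.8 and 13.1 TPM in KO, 14 and 10.3 TPM in OE and 14.4 and 19 TPM in WT cells with doxorubicin, against 35.7 and 58.2 TPM in KO, 30.9 and 42 TPM in OE and 81.9 and 49.2 TPM in WT cells in control medium. All 6 doxorubicin libraries lay below all 6 control libraries, and the log2 difference was -1.68 ± 0.18 (SE, limma adjusted p = 8.73e-06). MVK, the first kinase of the pathway, had 3.65 and 3.13 TPM in KO, 3.96 and 2.08 TPM in OE and 3.06 and 3.21 TPM in WT cells with doxorubicin, against 6.66 and 6.26 TPM in KO, 6.18 and 5.47 TPM in OE and 7.80 and 4.40 TPM in WT cells in control medium. PMVK, which adds the next phosphate to the product of MVK, moved the other way. It had 18.9 and 13 TPM in KO, 18.3 and 13.5 TPM in OE and 19.1 and 19.6 TPM in WT cells with doxorubicin, against 9.36 and 4.34 TPM in KO, 7.91 and 5.38 TPM in OE and 4.13 and 10.1 TPM in WT cells in control medium. Its log2 difference was 1.25 ± 0.22 (SE, limma adjusted p = 0.000464), and the 2 neighbouring kinases of the pathway thus lay on opposite sides, with MVK at -0.77 ± 0.17 (limma adjusted p = 0.00228). Neither kinase overlapped between the 6 doxorubicin and the 6 control libraries.

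MVD, the decarboxylase that makes isopentenyl diphosphate, had 12.5 and 10.8 TPM in KO, 14.4 and 10.9 TPM in OE and 11.8 and 13.2 TPM in WT cells with doxorubicin, against 23.7 and 28 TPM in KO, 22.7 and 25.6 TPM in OE and 33 and 33.9 TPM in WT cells in control medium. IDI1, which isomerises that unit, had 24.7 and 12.6 TPM in KO, 19 and 11.3 TPM in OE and 15.9 and 21.9 TPM in WT cells with doxorubicin, against 39.2 and 41.3 TPM in KO, 28.1 and 31 TPM in OE and 62.6 and 41.7 TPM in WT cells in control medium. Both fell with no overlap between the media, with log2 differences of -1.11 ± 0.13 for MVD and -1.17 ± 0.19 for IDI1 (SE; limma adjusted p = 1.6e-05 and 0.000213). FDPS, the farnesyl diphosphate synthase, ranged over 26.3 to 39.2 TPM with doxorubicin and 34.3 to 49.2 TPM in control medium and was not called (limma adjusted p = 0.0654). ACAT2, the cytosolic acetoacetyl-CoA thiolase, ranged over 5.50 to 17.3 TPM with doxorubicin and 8.46 to 15.4 TPM in control medium and was not called either (adjusted p = 0.79). The summed level of the 7 genes had a median of 116 TPM over the doxorubicin libraries and of 178 TPM over the control libraries, and the ranges, 80.3 to 130.1 and 138.6 to 254 TPM, did not overlap.

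Of the 3 genes that lead to lanosterol, FDFT1 and SQLE fell. SQLE, the squalene epoxidase, had 23.8 and 22.1 TPM in KO, 23.3 and 16.7 TPM in OE and 19.5 and 25.4 TPM in WT cells with doxorubicin, against 46.8 and 63.3 TPM in KO, 44.5 and 44.5 TPM in OE and 59.1 and 59.8 TPM in WT cells in control medium. Its level with doxorubicin was 0.411 of the control level (log2 difference -1.24 ± 0.13, SE; limma adjusted p = 1.02e-05), and the highest doxorubicin library lay below the lowest control library. FDFT1, the squalene synthase, had 35.8 and 27 TPM in KO, 34.4 and 22.5 TPM in OE and 30.2 and 45.5 TPM in WT cells with doxorubicin, against 38.8 and 88 TPM in KO, 49 and 63.4 TPM in OE and 112 and 73.4 TPM in WT cells in control medium. Its log2 difference was -1.04 ± 0.21 (SE, limma adjusted p = 0.00106). FDFT1 was apart in each cell kind but not across them, since WT doxorubicin replicate b exceeded KO control replicate a. LSS, which closes the rings of lanosterol, ranged over 7.23 to 11.4 TPM with doxorubicin and 6.68 to 13.4 TPM in control medium and was not called (limma adjusted p = 0.932).

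Among the 8 genes from lanosterol to cholesterol, 4 fell, 1 rose and 3 were not called. MSMO1 (chr4:165327623-165343160), the methyl oxidase that removes the methyl groups at the fourth carbon, had 39.9 and 30.9 TPM in KO, 36.8 and 20.8 TPM in OE and 34.4 and 37.6 TPM in WT cells with doxorubicin, against 70.9 and 188 TPM in KO, 85.5 and 136 TPM in OE and 241 and 129 TPM in WT cells in control medium. This was the largest fall among the enzymes, -1.96 ± 0.25 log2 units (SE, limma adjusted p = 3.3e-05), and the control libraries spread far more than those with doxorubicin. DHCR7, the reductase that completes cholesterol, had 22.2 and 22.7 TPM in KO, 23.4 and 17.6 TPM in OE and 18.5 and 29.5 TPM in WT cells with doxorubicin, against 33.2 and 42.4 TPM in KO, 38.2 and 36.2 TPM in OE and 49.3 and 49.8 TPM in WT cells in control medium. EBP, the sterol isomerase, had 14.5 and 12 TPM in KO, 14.3 and 10.0 TPM in OE and 14.7 and 14.1 TPM in WT cells with doxorubicin, against 17.9 and 30.5 TPM in KO, 16.7 and 22.2 TPM in OE and 35.3 and 27.2 TPM in WT cells in control medium. SC5D, a sterol desaturase, had 9.46 and 7.95 TPM in KO, 8.27 and 5.73 TPM in OE and 8.52 and 9.65 TPM in WT cells with doxorubicin, against 11.5 and 19.4 TPM in KO, 9.91 and 13.3 TPM in OE and 19 and 15.5 TPM in WT cells in control medium. The log2 differences of these genes were -0.87 ± 0.14 for DHCR7, -0.82 ± 0.16 for EBP and -0.74 ± 0.16 for SC5D (SE; limma adjusted p = 0.000222, 0.00094 and 0.00194), and none of them overlapped between the media.

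TM7SF2 (chr11:65111845-65116384), a sterol reductase of the endoplasmic reticulum that acts on the product of the sterol demethylase CYP51A1, rose. It had 32.6 and 20.2 TPM in KO, 32.3 and 18.5 TPM in OE and 24.5 and 28.7 TPM in WT cells with doxorubicin, against 15.4 and 6.82 TPM in KO, 10.5 and 6.88 TPM in OE and 6.74 and 9.34 TPM in WT cells in control medium. Every doxorubicin library exceeded every control library, and the log2 difference was 1.43 ± 0.22 (SE, limma adjusted p = 0.000144). CYP51A1 itself ranged over 25.3 to 46.4 TPM with doxorubicin and 31.6 to 58.8 TPM in control medium (limma adjusted p = 0.367). NSDHL, a sterol dehydrogenase, ranged over 9.44 to 14.6 TPM with doxorubicin and 11.2 to 13.4 TPM in control medium (adjusted p = 0.746), and HSD17B7, a keto-reductase, over 3.41 to 8.84 TPM with doxorubicin and 5.19 to 9.16 TPM in control medium (adjusted p = 0.292). These last 3 genes were not called. CYP51A1 shares 79.3% of its exon bases with a second gene model on the same strand, and HSD17B7 has closely similar pseudogene copies, so the counts of both are uncertain.

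The 5 regulators did not move one way: 3 fell, 1 rose and 1 was not called. SREBF2, which encodes the SREBP that mainly drives cholesterol genes, had 19.1 and 19.1 TPM in KO, 21.7 and 13 TPM in OE and 16.6 and 25.2 TPM in WT cells with doxorubicin, against 36.3 and 42.9 TPM in KO, 42.5 and 34.3 TPM in OE and 51 and 49.3 TPM in WT cells in control medium. SREBF1, whose products mainly drive fatty acid genes, had 25.4 and 23.1 TPM in KO, 31.2 and 18.9 TPM in OE and 17.5 and 25.9 TPM in WT cells with doxorubicin, against 36 and 23.5 TPM in KO, 30.7 and 24 TPM in OE and 27.2 and 36.7 TPM in WT cells in control medium. SREBF2 fell with no overlap (log2 difference -1.13 ± 0.15, SE; limma adjusted p = 5.96e-05), while the SREBF1 libraries overlapped and the difference, -0.32 ± 0.17, was not called (adjusted p = 0.13). SREBF1 and FDPS passed with median-ratio scaling (adjusted p = 0.0313 and 0.0291) and with limma-voom on the recovered reads (0.0214 and 0.0258), and 27 members were called in either. The ratio of SREBF1 to SREBF2 within a library was 1.03 to 1.46 with doxorubicin and 0.534 to 0.991 in control medium, so SREBF1 was the more abundant of the pair in every doxorubicin library and the less abundant in every control library. SCAP had 17.6 and 15.1 TPM in KO, 19 and 13.6 TPM in OE and 16 and 15.9 TPM in WT cells with doxorubicin, against 13.3 and 9.69 TPM in KO, 12.1 and 8.31 TPM in OE and 6.66 and 9.25 TPM in WT cells in control medium. It rose by 0.68 ± 0.16 log2 units (SE, limma adjusted p = 0.00251), and the lowest doxorubicin library lay just above the highest control library.

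INSIG1 (chr7:155297776-155310235) had 10.1 and 9.40 TPM in KO, 10.1 and 6.87 TPM in OE and 7.88 and 17.1 TPM in WT cells with doxorubicin, against 78.1 and 128 TPM in KO, 86 and 104 TPM in OE and 216 and 107 TPM in WT cells in control medium. The 6 doxorubicin libraries lay below 18 TPM and the 6 control libraries above 78 TPM. Its log2 difference of -3.39 ± 0.22 (SE, limma adjusted p = 3.15e-07) had a 95% interval of -3.87 to -2.92 and was called in each cell kind. INSIG2, the second retention factor, had 5.42 and 5.58 TPM in KO, 5.29 and 6.37 TPM in OE and 6.86 and 5.90 TPM in WT cells with doxorubicin, against 12.9 and 13.4 TPM in KO, 10.9 and 11.5 TPM in OE and 11.3 and 10.6 TPM in WT cells in control medium. The fall of INSIG2, -0.89 ± 0.13 log2 units (SE, limma adjusted p = 9.97e-05), was smaller and also without overlap, and the ratio of INSIG1 to INSIG2 was 1.08 to 2.89 with doxorubicin and 6.06 to 19.1 in control medium. The 5 regulators together summed to a median of 74.9 TPM with doxorubicin and 197 TPM in control medium.

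**Figure D2:**
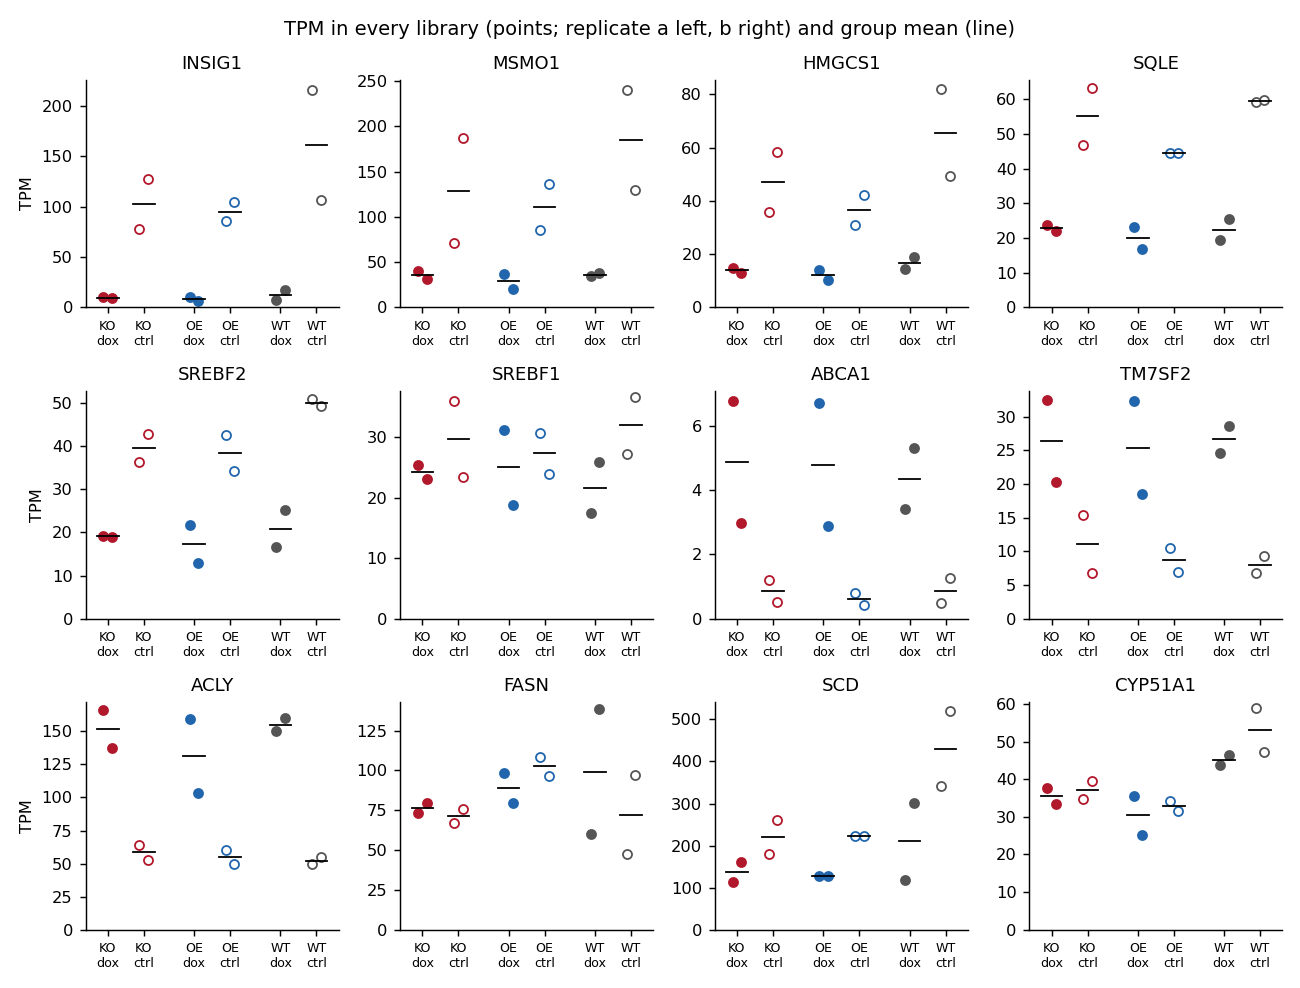
TPM (vertical axis, from 0) of 12 genes in each library; filled points are doxorubicin and open points control, with KO, OE and WT cells from left to right and the group mean as a line. INSIG1, MSMO1, HMGCS1, SQLE and SREBF2 have every doxorubicin point below every control point, ABCA1, TM7SF2 and ACLY the reverse, and SREBF1, FASN and CYP51A1 overlap.

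Of the genes for sterol handling, STARD4, a carrier of cholesterol between membranes, had 19.6 and 16.6 TPM in KO, 18.4 and 11.5 TPM in OE and 15.5 and 18.6 TPM in WT cells with doxorubicin, against 47.1 and 67 TPM in KO, 31.3 and 54.9 TPM in OE and 56.5 and 46.8 TPM in WT cells in control medium. All doxorubicin libraries lay below all control libraries (log2 difference -1.52 ± 0.17, SE; limma adjusted p = 1.57e-05). MYLIP, the LXR-induced ligase that marks lipoprotein receptors for degradation, had 15.8 and 13.4 TPM in KO, 14.7 and 9.80 TPM in OE and 10.3 and 8.42 TPM in WT cells with doxorubicin, against 14.9 and 23.5 TPM in KO, 14.5 and 18.6 TPM in OE and 21.3 and 12.7 TPM in WT cells in control medium. The MYLIP libraries overlapped in KO and OE cells, and its averaged call (log2 difference -0.51 ± 0.18, limma adjusted p = 0.025) was lost without any one of 5 libraries, WT doxorubicin replicate b, WT control replicate a, KO control replicate b, OE doxorubicin replicate b or OE control replicate b, with adjusted p between 0.0614 and 0.0871. ABCA1 (chr9:104781002-104928237), which LXR also raises, had 6.77 and 2.97 TPM in KO, 6.71 and 2.88 TPM in OE and 3.41 and 5.31 TPM in WT cells with doxorubicin, against 1.21 and 0.507 TPM in KO, 0.782 and 0.434 TPM in OE and 0.480 and 1.26 TPM in WT cells in control medium. ABCA1 was low throughout, yet each doxorubicin library exceeded each control library, by 6.0-fold in mean TPM and 1.64 ± 0.23 on the log2(TPM + 1) scale (SE, limma adjusted p = 8.13e-05). MYLIP and ABCA1 thus changed in opposite directions, and LXR targets among the other members were not set apart.

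In the fatty acid group 5 of 7 members rose, 1 fell and 1 was not called; leaving out FADS2, 4 of 6 rose and 1 fell. ACLY (chr17:41866908-41930542), which makes cytosolic acetyl-CoA from citrate, had 166 and 137 TPM in KO, 159 and 103 TPM in OE and 150.0 and 160.0 TPM in WT cells with doxorubicin, against 64.3 and 52.5 TPM in KO, 59.9 and 49.6 TPM in OE and 49.4 and 54.7 TPM in WT cells in control medium. Its log2 difference was 1.38 ± 0.13 (SE, limma adjusted p = 4.9e-06), and no libraries overlapped. ACACA, the acetyl-CoA carboxylase that commits carbon to fatty acids, had 34.6 and 32 TPM in KO, 36.9 and 24.1 TPM in OE and 24.9 and 28.5 TPM in WT cells with doxorubicin, against 22.3 and 21.8 TPM in KO, 19.6 and 18.3 TPM in OE and 20.1 and 24.4 TPM in WT cells in control medium. It rose by 0.49 ± 0.13 log2 units (SE, limma adjusted p = 0.00698) and was apart within each cell kind. FASN, the synthase that builds palmitate, had 73.1 and 79.3 TPM in KO, 98.2 and 79.4 TPM in OE and 60.1 and 138 TPM in WT cells with doxorubicin, against 66.9 and 75.7 TPM in KO, 108 and 96.5 TPM in OE and 47.3 and 96.8 TPM in WT cells in control medium. FASN was not called (log2 difference 0.10 ± 0.21, adjusted p = 0.685), and in WT cells its replicates differed by more than the media did.

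ELOVL6, which lengthens palmitate, had 14.1 and 11.3 TPM in KO, 11.8 and 8.30 TPM in OE and 10.6 and 12.4 TPM in WT cells with doxorubicin, against 9.13 and 4.85 TPM in KO, 6.68 and 4.28 TPM in OE and 4.54 and 9.22 TPM in WT cells in control medium. FADS1, a desaturase of polyunsaturated fatty acids, had 16.3 and 10.8 TPM in KO, 15.2 and 7.26 TPM in OE and 11.7 and 14.3 TPM in WT cells with doxorubicin, against 8.85 and 4.13 TPM in KO, 5.93 and 4.23 TPM in OE and 4.09 and 6.01 TPM in WT cells in control medium. FADS2, its partner enzyme, had 2.48 and 1.10 TPM in KO, 2.57 and 0.917 TPM in OE and 1.35 and 2.0 TPM in WT cells with doxorubicin, against 0.728 and 0.504 TPM in KO, 0.620 and 0.532 TPM in OE and 0.508 and 0.861 TPM in WT cells in control medium. The log2 differences were 0.78 ± 0.20, 1.06 ± 0.22 and 0.71 ± 0.18 for ELOVL6, FADS1 and FADS2 (SE; limma adjusted p = 0.00564, 0.0013 and 0.00489), each apart within every cell kind. The presence of FADS2 among the tested genes was tied to its high doxorubicin libraries, so its rise is not counted as support. SCD, the desaturase that makes oleate, was the member that fell. It had 113 and 162 TPM in KO, 127 and 129 TPM in OE and 119 and 302 TPM in WT cells with doxorubicin, against 179 and 260.0 TPM in KO, 223 and 222 TPM in OE and 341 and 521 TPM in WT cells in control medium. Its log2 difference was -0.87 ± 0.21 (SE, limma adjusted p = 0.00323), with no overlap within a cell kind, although WT doxorubicin replicate b, at 302 TPM, exceeded 4 control libraries of KO and OE cells.

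Gene pairs can be compared within a library, where the scaling of TPM between libraries cancels. ACLY stood at 8.43 to 11.4 times HMGCS1 in the doxorubicin libraries, against 0.603 to 1.94 times in the control libraries. TM7SF2 stood at 0.654 to 0.887 of MSMO1 with doxorubicin and at 0.0280 to 0.218 in control medium. These 2 ratios had to separate, since the genes of each pair had already lain apart in opposite directions, and they add nothing to the single values. The summed level of the 7 fatty acid genes was alike in range, with a median of 427 TPM with doxorubicin and 422 TPM in control medium, a sum in which SCD, FASN and ACLY have the largest shares.

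**Figure D3:**
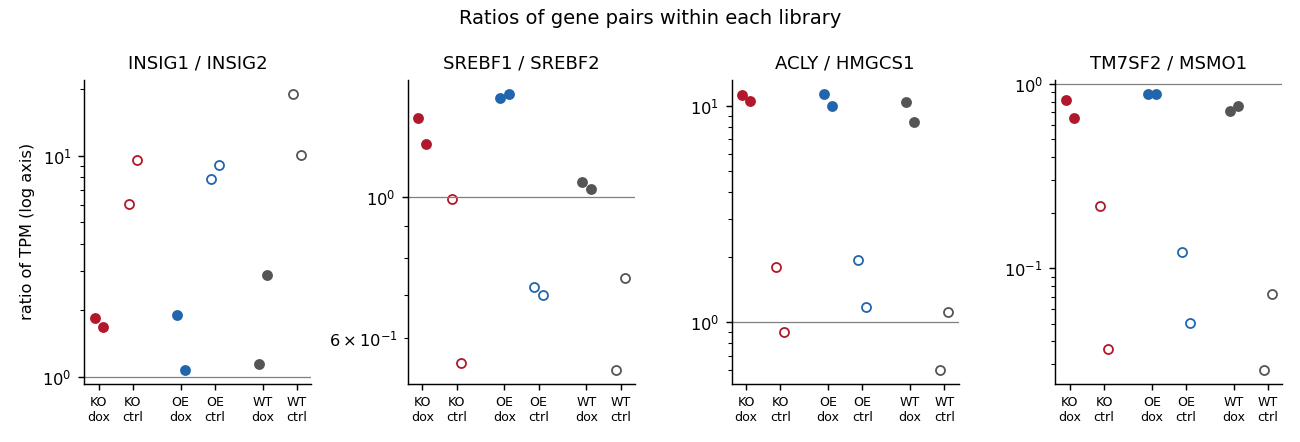
Ratio of the TPM of 2 genes within each library, on a log axis; filled points are doxorubicin, open points control, and the grey line marks a ratio of 1. SREBF1/SREBF2 lies above 1 in all doxorubicin libraries and below 1 in all control libraries, and INSIG1/INSIG2, ACLY/HMGCS1 and TM7SF2/MSMO1 are likewise separated, the last 2 because their genes moved apart in opposite directions.

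Neighbouring parts of sterol metabolism were read from lists chosen by function, with earlier results of these data known. Each was set beside the 58.0% of all genes called in the averaged response. Of 8 genes for sterol sensing and SREBP processing 3 rose and 0 fell. MBTPS2, the membrane protease that releases SREBP, averaged 2.01 ± 0.343 TPM with doxorubicin and 0.899 ± 0.285 TPM in control medium (SD, n = 6 each), a log2 difference of 0.67 (limma adjusted p = 0.00184). ERLIN2, which acts in the turnover of sterol-regulated proteins, averaged 11.1 ± 2.48 TPM with doxorubicin and 5.76 ± 2.08 TPM in control medium (log2 difference 0.87). RNF145, a sterol-responsive ubiquitin ligase, had a log2 difference of 0.45. Of 13 genes of the isoprenoid side branch 4 rose and 3 fell. PDSS1, which makes the tail of coenzyme Q, averaged 15.7 ± 2.62 TPM with doxorubicin and 6.40 ± 1.55 TPM in control medium (log2 difference 1.18, limma adjusted p = 3.7e-05). RABGGTA, a subunit of the enzyme that prenylates Rab proteins, also rose, with a difference of 1.06. DHDDS, which makes the dolichol chain, fell (-0.67). Of 7 electron donors and scaffolds 1 rose, the cytochrome CYB5B (0.88), and 1 fell, ERG28, a scaffold of the demethylation enzymes (-0.60). These lists were called no more often than all genes.

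Of 13 other SREBP-responsive genes 5 rose and 4 fell (69.2% called), so they did not move one way. ALDOC, an aldolase, averaged 35.7 ± 9.96 TPM with doxorubicin and 161 ± 22 TPM in control medium (SD, n = 6 each; log2 difference -2.19, limma adjusted p = 1.69e-06). ACSS2, which makes acetyl-CoA from acetate, averaged 7.72 ± 0.761 TPM with doxorubicin and 20.4 ± 3.47 TPM in control medium (log2 difference -1.28). LPIN1, a phosphatidate phosphatase, fell (-1.82), while FABP5, a fatty acid binding protein, rose (0.83). Of 13 measured genes of cholesterol efflux, uptake and esterification 4 rose and 5 fell (69.2% called). The 5 that fell include a gene of at most 0.767 TPM with doxorubicin, which passed the expression filter only through its control libraries. SCARB1, the receptor for high-density lipoprotein, averaged 23.7 ± 3.07 TPM with doxorubicin and 10.6 ± 0.933 TPM in control medium (log2 difference 1.09, limma adjusted p = 2.14e-05), and NR1H2, which encodes an LXR, had a difference of 0.83. NPC2, which carries cholesterol out of the lysosome, averaged 20.5 ± 5.91 TPM with doxorubicin and 61.1 ± 12.4 TPM in control medium (log2 difference -1.55), and the oxysterol-binding OSBP had -1.14.

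Of 21 measured genes for the activation and elongation of fatty acids and for mitochondrial synthesis 7 rose and 9 fell, 76.2% called, beside 58.0% of all genes. This share, like the 69.2% of the efflux, uptake and esterification list, includes a gene that passed the expression filter only through its control libraries. No excess over all genes is therefore read from these lists. ELOVL5, an elongase of polyunsaturated chains, averaged 20.2 ± 3.96 TPM with doxorubicin and 63.1 ± 9.0 TPM in control medium (SD, n = 6 each; log2 difference -1.61, limma adjusted p = 1.28e-06). MCAT, of mitochondrial fatty acid synthesis, rose (1.28), and TECR, the last enzyme of the elongation cycle, fell (-1.12). ACACB, the carboxylase at the mitochondrial surface, averaged 0.626 ± 0.172 TPM with doxorubicin and 2.41 ± 0.336 TPM in control medium (log2 difference -1.07). ACACB, which is counted in the 76.2%, passed the expression filter only through its control libraries, so its difference is a description. Of 17 measured genes of fatty acid oxidation 8 rose and 1 fell. CPT1A, which admits fatty acids to mitochondria, averaged 31 ± 7.63 TPM with doxorubicin and 14.2 ± 3.32 TPM in control medium (log2 difference 1.06, limma adjusted p = 0.000349). DECR1, ACADM and ECHS1, enzymes of the oxidation cycle or its side steps, had differences of 1.03, 0.98 and 0.82. The oxidation list was called in 52.9% of its genes, below the 58.0% of all genes.

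The design also asks whether the loss or gain of SPARCLE moved these genes. None of the 33 members was called in any of the 6 comparisons that involve the genotype. In KO against WT cells 0 members passed with doxorubicin, where 0.295% of all genes did, and 0 in control medium (0.0918%). In OE against WT cells 0 passed with doxorubicin (0.315%) and 0 in control medium (0.118%). The responses of KO and of OE cells differed from that of WT cells in 0 members each (0.00655% of all genes in either interaction). By limma-voom on the recovered reads the counts were 0 as well. At an unadjusted limma p under 0.05, KO differed from WT in 0 of 33 members with doxorubicin (3.43% of all genes) and 2 of 33 in control medium (7.14%). OE differed from WT in 1 of 33 with doxorubicin (4.83%) and 5 of 33 in control medium (5.03%). The last is a larger share than that of all genes, and all 5 lay lower in OE cells. The interactions held 0 members in KO (1.27% of all genes) and 0 in OE cells (0.983%).

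The lowest value against WT was that of SCD, which averaged 219.7 ± 57.0 TPM in KO control cells, against 431 ± 128 TPM in WT control cells (SD, n = 2 each), with a log2 difference of -0.96 and a 95% interval of -1.74 to -0.18 (limma adjusted p = 0.62). In OE control cells SCD averaged 223 ± 0.709 TPM (log2 difference from WT -0.92, adjusted p = 0.894). CYP51A1 in OE cells lay -0.57 log2 units from WT with doxorubicin and -0.66 in control medium (limma adjusted p = 0.821 and 0.685), and in KO control cells -0.50 (adjusted p = 0.68). HMGCS1, IDI1 and EBP were the other members under the unadjusted threshold in OE control cells, with log2 differences of -0.80, -0.77 and -0.66. The comparisons of KO and of OE with WT share the WT libraries.

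The largest differences between responses were 0.58 for MSMO1 in KO minus WT cells (95% interval -0.73 to 1.88) and -0.64 for FASN in OE minus WT cells (-1.74 to 0.46). Over all members the 95% intervals of the interactions were between 1.28 and 2.64 log2 units wide, and those of the genotype comparisons between 0.905 and 1.87. Many of these intervals include differences as large as a doxorubicin response described above, and a missed threshold does not show that the cell kinds act alike.

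**Figure D4:**
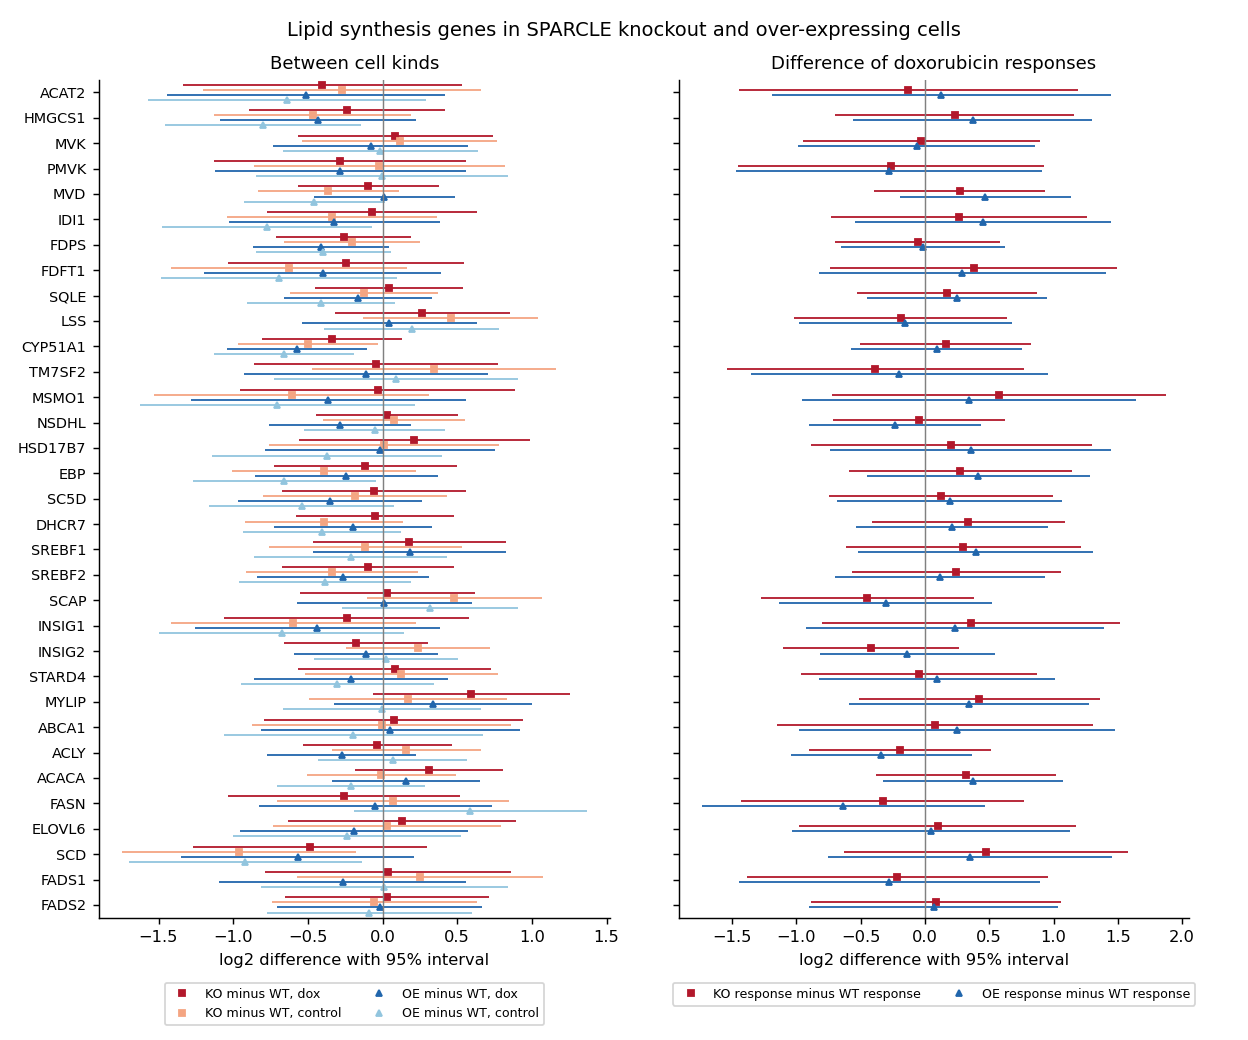
Log2 differences with 95% intervals (horizontal axis) for each gene (rows): on the left KO minus WT and OE minus WT cells within each medium, on the right the response of KO or OE cells minus that of WT cells. All adjusted p are at or above 0.62; single intervals that miss 0, such as those of SCD and CYP51A1, come from unadjusted estimates.

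The strand setting of the counting is not given in the sources used here, so reads of overlapping genes on the other strand cannot be told apart. Such overlap with genes that have no values here covers 33.9% (SOD2-OT1) and 26.5% (SOD2) of the exon bases of ACAT2. It covers 14.95% of HMGCS1 (AC114947.2) and smaller shares of LSS, CYP51A1, ACLY and STARD4. Such overlap with a gene in the file covers 18.6% of the exon bases of FDPS (RUSC1-AS1), 14.8% of IDI1 (IDI2-AS1), 9.24% of ACAT2 (TCP1), 6.92% of SREBF1 (RAI1), 4.79% of FADS1 (FADS2), 4.72% of MVK (MMAB), 4.44% of FADS2 (FADS1, the more abundant of that pair), 4.17% of FDFT1 (AC069185.1) and 3.71% of SREBF2 (SREBF2-AS1).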

How the data were processed

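Total RNA of 12 HCT116 libraries (a stranded TruSeq kit, per the labels' protocols) was given by the authors as log2 TPM in one deposited table of 16676 genes, of which 16564 have an identifier in GENCODE v29. Tools named in the submitters' processing notes are edgeR 3.12.1, featureCounts, HISAT2 2.0.4 and SAMtools 1.7, with R 3.3.3 and build hg38; order, annotation and filters are not given. Reads were recovered from TPM with GENCODE exon lengths: 15182 genes (91.7%) gave whole reads within 0.05 reads plus a small prior count, and 1481 more with a searched length.

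TPM was put on log2(TPM + 1), genes with at least 1 TPM in at least 2 libraries were kept (15256), and all 12 libraries entered a model of 6 group means in limma 3.58.1 under R 4.3.3 (eBayes, trend; 6 residual degrees of freedom). Comparisons were contrasts of group means; the averaged response is the mean of the 3 doxorubicin minus control contrasts. Calls are at a Benjamini-Hochberg adjusted p under 0.05 over all genes kept. The fit was also run on simulated counts with independent replicates, a common spread and the same changed genes in every cell kind. That setting is simpler than these data, so it does not show how reliable the calls here are.

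Groups follow the sample titles. Members and lists were chosen with earlier results of these data known. Every library is given for members called in the averaged response and apart in each cell kind, and for INSIG1, INSIG2, SREBF1, SREBF2, SCAP, HMGCS1, SQLE, FASN, SCD, ABCA1 and MYLIP whatever their values; the others by range. Up to 4 genes of each pathway list with the smallest adjusted p are named. Motif letters were searched in RefSeq promoter windows (GRCh38.p14). Alternatives were another pseudocount, other filters, other scalings, a replicate block, limma-voom on recovered reads, fits on the compared groups alone and leaving out each library.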

Additional observations from a re-analysis of the deposited data

How the results depend on the processing

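The averaged response called 25 members and 24 to 27 when 1 library was left out. Leaving out 1 library gave 6 to 17 called members in KO (14 with all), 4 to 15 in OE (13) and 9 to 21 in WT cells (20), and 0 to 0 in each genotype comparison and interaction. The member median minus that of all genes ran, without 1 library, from -0.62 to -0.20 in KO, -0.49 to -0.33 in OE, -0.94 to -0.49 in WT and -0.54 to -0.33 in the averaged response. For KO minus WT it ran from -0.26 to 0.25 with doxorubicin and -0.45 to -0.16 in control medium, for OE minus WT from -0.31 to 0.18 and -0.42 to -0.24, and for the interactions from 0.02 to 0.55 (KO) and -0.07 to 0.43 (OE). Limma-voom on recovered reads called 20 in OE cells. Of the averaged responses of single members, 12 alternative values changed sign, all in members not called: ACAT2 (0.17 without KO doxorubicin replicate b, 0.11 without OE doxorubicin replicate b), LSS (0.07 without small RNA genes, and -0.11 to 0.07 over libraries left out, above 0 at 0.01, 0.03, 0.04, 0.06 and 0.07), NSDHL (-0.02 with median-ratio scaling, -0.05 with voom) and FASN (-0.09 without WT doxorubicin replicate b, -0.07 without WT control replicate a, and up to 0.30 without WT doxorubicin replicate a). The cause was not tested. Calls of single members in 1 cell kind stayed in 248 alternative values and were lost in 31 in KO, 232 and 27 in OE and 364 and 35 in WT cells, with no change of sign. The median of all genes in WT cells was 0.17 on the TPM scale and 0.01 with median-ratio scaling. The replicate letters did not deviate together in every pair of groups, so they were not used as pairs (correlation of same-letter deviations -0.39 to 0.81 over 15 pairs of groups, 8 of them over 0.1). They did between KO and OE cells (0.81 with doxorubicin, 0.50 in control medium), while WT control went against KO control (-0.39) and OE control (-0.35). Over the members alone the correlations between KO and OE cells were 0.77 with doxorubicin and 0.86 in control medium. Those of WT control with KO control and with OE control were both -0.71 over the members. A replicate block gave 16 called members in KO, 17 in OE, 21 in WT and 25 in the averaged response. A filter at a mean of 5 TPM left 30 members, 22 of them called. The averaged contrast uses all groups, so a fit on the compared groups alone adds no further value there.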

Other observations

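In control medium the deeper library of a pair was KO replicate b, OE replicate b and WT replicate a (16527462, 18371808 and 18562523 reads, against 15616252, 12593485 and 12945584). In all 3 deeper libraries 13 of 33 members were higher and 11 lower than in their partner, where 10.4% of all genes were higher and 44.1% lower in all 3. MSMO1 had 188 against 70.9 TPM in KO, 136 against 85.5 TPM in OE and 241 against 129 TPM in WT cells, deeper library first. FDFT1 had 88.0 against 38.8 TPM in KO, 63.4 against 49.0 TPM in OE and 112 against 73.4 TPM in WT cells. PMVK ran the other way, with 4.34 against 9.36 TPM in KO, 5.38 against 7.91 TPM in OE and 4.13 against 10.1 TPM in WT cells. The part of depth in these values was not tested, and the pattern was noticed after the values were seen. With doxorubicin 3 members were higher and 0 lower in all 3 deeper libraries, against 2.68% and 1.29% of all genes.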
